A study of Mus musculus with 55 samples.

Results

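The genes described here encode the proteins that write, maintain, erase or shield DNA methylation. They are Dnmt1, Dnmt3a, Dnmt3b, Dnmt3l, Uhrf1, Dppa3, Tet1, Tet2 and Tet3, 9 of the 51734 genes in the count tables of 52 mouse oocyte libraries. They were chosen by name for their role, and all 9 passed the filter on low counts.

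DNA methylation is placed on unmethylated DNA by de novo methyltransferases and copied after replication by a maintenance methyltransferase. DNMT3A and DNMT3B are the de novo writers, and DNMT3L has no catalytic activity of its own but binds DNMT3A and stimulates it. In the mouse, oocyte methylation is laid down after birth while the oocyte grows, mainly by the DNMT3A-DNMT3L complex. DNMT1 copies methylation to the new strand, and UHRF1 brings it to hemimethylated DNA. TET1, TET2 and TET3 oxidize methylated cytosine, the first step of its removal. DPPA3, also called STELLA or PGC7, shields the maternal genome from oxidation after fertilization and keeps UHRF1 out of the oocyte nucleus.

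A single oocyte went into each library, prepared with the SMART-Seq HT kit, which copies RNA from its poly(A) tail. The fully grown oocyte (FGO) is the last stage before meiotic maturation, and the MII oocyte is the mature egg. The FGOs came from adult ovaries of females 10 to 12 weeks old, with cumulus cells washed off, and per the methods FGOs were pooled before storage. They comprised 18 wild-type FGOs, 8 Dnmt3L ADD/ADD FGOs (labelled Dnmt3a+/+ with Dnmt3L D124A/D124A), 8 Dnmt3a ADD/ADD FGOs (labelled Dnmt3a ADA/ADA with Dnmt3L+/+) and 8 double mutant FGOs (homozygous for both alleles). The remaining 10 libraries were wild-type MII oocytes, for which the labels give no age. The methods describe hormone injections of females before MII oocytes were collected for fertilization, and do not say whether the sequenced oocytes were obtained in this way. Both alleles change aspartic acid to alanine in the ADD domain, the part of each protein that binds histone H3 unmethylated at lysine 4. Per the methods, each allele descends from 1 founder male, was backcrossed to C57BL/6J and is carried in the germline, not limited to oocytes by a Cre driver. Whether the wild-type females were littermates of the mutants is not given in the sources used here. No source ties an oocyte to an animal, so p-values measure only the spread between oocytes, which may share a mother.

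The changed bases are shown because they define the genotypes compared. In Dnmt3a the donor oligonucleotide differed from the reference transcript at positions A38C and A44C of the donor, counted from its 5′ end. In Dnmt3l it differed at A62C and A66C. The paper describes only the change D124A in DNMT3L, so these bases do not both alter the protein. All 4 changes lie in coding exons, exon 14 of Dnmt3a (chromosome 12, 3899618 and 3899624, mm10) and exon 7 of Dnmt3l (chromosome 10, 78052029 and 78052033). Capitals mark the changed bases in the windows of 30 bases below, written 5′ to 3′ along the transcript, from chr12:3899607-3899636 and chr10:78052017-78052046.
Dnmt3a, reference: ttaccagtatgAcgacgAtgggtaccagtc
Dnmt3a, donor: ttaccagtatgCcgacgCtgggtaccagtc
Dnmt3l, reference: tgtatgatgatgAtggAcaccagagttact
Dnmt3l, donor: tgtatgatgatgCtggCcaccagagttact
The Dnmt3a guide was given with its PAM (in capitals, on the transcript's strand, chr12:3899605-3899627), and the Dnmt3l guides without it (the first on the opposite strand, chr10:78052018-78052037, the other on the transcript's strand, chr10:78052010-78052029).
Dnmt3a guide: gcttaccagtatgacgacgaTGG
Dnmt3l guide 1: ggtgtccatcatcatcatac
Dnmt3l guide 2: ctcttcctgtatgatgatga
Gene counts sum reads over all exons, so they do not separate the mutant from the reference allele and give no check of the genotypes.

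Levels are given as CPM, the count of a gene scaled to a library of 1000000 counted reads after TMM normalization, with the standard deviation (SD) between oocytes. A CPM is a share of the reads of a library, with no spike-in, so less RNA of a gene and more of all others cannot be told apart. The total count ran from 7832458 to 23739871 per library. The 10 oocyte markers fixed for this work (such as Gdf9 and Zp3) were present in all libraries and summed to between 7802.6 and 13694.8 CPM. Of 14 granulosa and cumulus markers, Serpine2 had the highest mean in every group (170 to 207 CPM). Others were higher in wild-type FGOs than in MII oocytes, such as Inha, an inhibin subunit, with means of 9.82 and 0.142 CPM. Serpine2, Cyp19a1 and Has2 instead had higher means in MII oocytes (207, 25.4 and 1.76 CPM) than in wild-type FGOs (187, 24.7 and 0.934 CPM). The sum of all 14 ran from 308 to 448 CPM in wild-type FGOs, from 261 to 376 in the mutants and from 304 to 360 in MII oocytes. Inhbb and Amh had means of 0 in MII oocytes, and Ptx3 was at 0 in 51 of the 52 libraries.

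The study's supplement lists the share of reads mapped for each library. By this share the oocytes form 2 classes. Wild-type FGOs with replicate numbers up to 8 had under 80% mapped, and those numbered 9 to 18 had at least 80%. The Dnmt3L ADD/ADD FGOs all belong to the higher class and the double mutant FGOs all to the lower. Of the Dnmt3a ADD/ADD FGOs 5 were in the higher class and 3 in the lower, and of the MII oocytes 7 and 3. Main results on the 9 genes below are therefore also given within these classes, while those on other pathway genes are not.

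The maintenance writer Dnmt1 (chromosome 9, 20907209 to 20959888, mm10, minus strand) had the highest mean CPM of all genes in wild-type FGOs. It stood at 4104.5 ± 435 CPM (SD, n = 18), with a lowest library of 3477, a median of 4011.1 and a highest of 4872.7 CPM. Tet3 (chromosome 6, 83362373 to 83459084, minus strand) was the third most counted gene, at 3401.5 ± 250 CPM (lowest 3050.5, median 3352.4, highest 4090 CPM). These 2 genes of opposite roles thus lay among the 3 genes with the most reads in the wild-type FGO.

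Uhrf1 (chromosome 17, 56303321 to 56323486, plus strand), the guide of DNMT1, held rank 79 at 991 ± 70.8 CPM (median 982, highest 1105.6 CPM). Dppa3 (chromosome 6, 122626410 to 122630272, plus strand) held rank 322 at 504 ± 47.2 CPM (439 to 601 CPM). Dnmt3a (chromosome 12, 3806007 to 3914443, plus strand) stood at 299 ± 30.9 CPM (247 to 361 CPM), and its cofactor Dnmt3l (chromosome 10, 78041947 to 78063622, plus strand) at 121 ± 22.6 CPM (80.9 to 153 CPM). The second de novo writer, Dnmt3b (chromosome 2, 153649450 to 153687730, plus strand), stood at 27.5 ± 3.48 CPM (20.6 to 35.2 CPM). Tet2 (chromosome 3, 133463679 to 133545139, minus strand) stood at 20.5 ± 3.45 CPM (13.8 to 27.3 CPM). Tet1 (chromosome 10, 62804570 to 62908996, minus strand) was the lowest, at 5.88 ± 1.68 CPM (2.8 to 9.45 CPM).

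**Figure D1:**
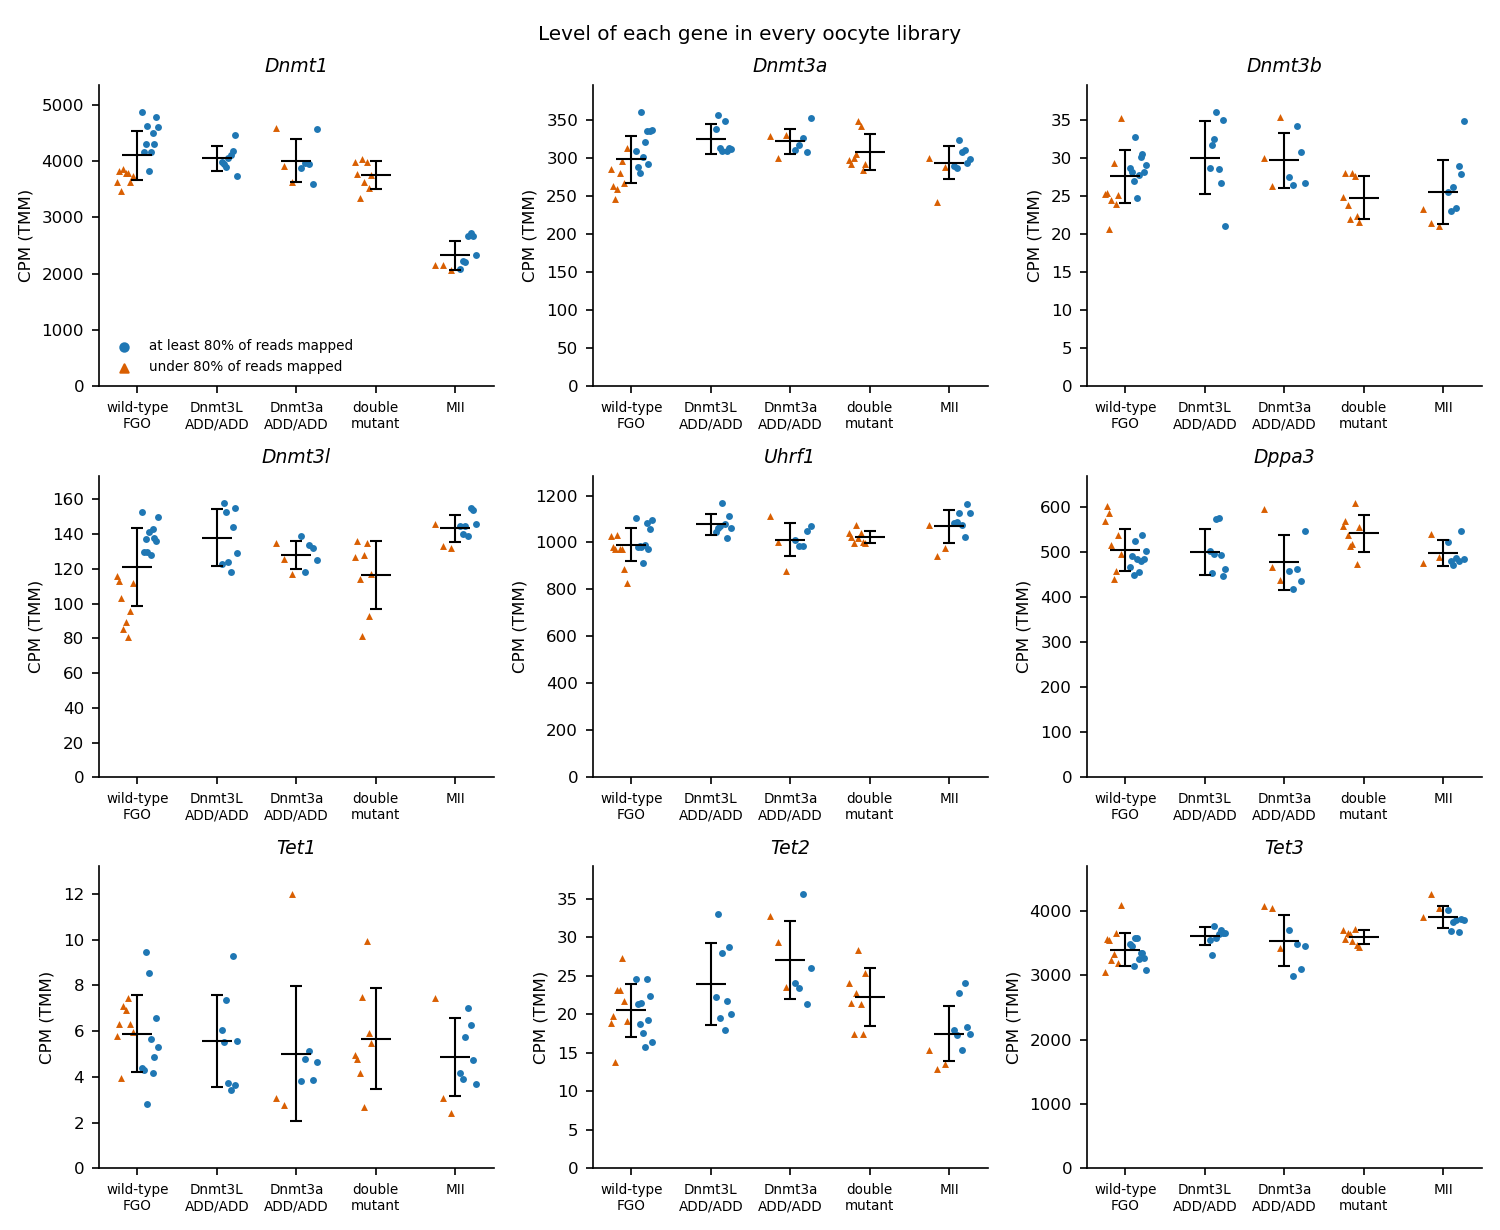
Level of each gene in CPM (linear axes from 0) in every library of the 5 groups, which stand from left to right as wild-type FGOs, the 3 mutants and MII oocytes. Points are oocytes, blue circles with at least 80% and orange triangles with under 80% of reads mapped, and bars give the mean ± SD of all oocytes of a group. The 10 MII oocytes lie below all 18 wild-type FGOs for Dnmt1, while every other gene overlaps between groups.

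The members differed in how much they varied between oocytes of the same genotype. Among wild-type FGOs the coefficient of variation of the CPM was 7.14% for Uhrf1, 7.36% for Tet3, 9.37% for Dppa3, 10.3% for Dnmt3a and 10.6% for Dnmt1. It was 12.6% for Dnmt3b, 16.8% for Tet2 and 18.6% for Dnmt3l, and 28.6% for Tet1. The value of Dnmt3l includes a gap between the classes of mapped reads. Wild-type FGOs under 80% had 99.5 ± 13.5 CPM of Dnmt3l, and those with at least 80% had 138 ± 8.44 CPM. Counting error alone would give 10.5% at the mean count of Tet1, 5.64% for Tet2 and 4.87% for Dnmt3b, but 2.32% for Dnmt3l and 0.399% for Dnmt1. Tet1 had between 44 and 166 counts in wild-type FGOs, so its values are the least precise of the 9.

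Reads grow with transcript length, so levels of different genes were compared as CPM per kilobase of counted exon. On this scale Dppa3, the shortest gene (892 bases), stood level with Dnmt1 (7377 bases) in wild-type FGOs, at 564 ± 52.9 and 556 ± 59 CPM per kb (SD, n = 18). Uhrf1 followed at 233 ± 16.6 and Tet3 at 204 ± 15 CPM per kb. The values of Dppa3 and Dnmt1 overlapped between oocytes, and so did those of Uhrf1 and Tet3. All other neighbours in the order were apart in every pair of oocytes. The de novo genes came next, with Dnmt3l at 40.5 ± 7.56, Dnmt3a at 18 ± 1.86 and Dnmt3b at 5.39 ± 0.681 CPM per kb. Tet2 was at 1.22 ± 0.205 and Tet1 at 0.39 ± 0.112 CPM per kb.

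Of the summed level of the family per kb in wild-type FGOs, Dppa3 made up 34.8% ± 3.05, Dnmt1 34.2% ± 2.68, Uhrf1 14.3% ± 0.836 and Tet3 12.6% ± 1.15 (SD, n = 18). Dnmt3l made up 2.49% ± 0.406, Dnmt3a 1.11% ± 0.1 and Dnmt3b 0.332% ± 0.0413. Tet3 had 99.1% to 99.5% of the reads of the 3 Tet genes in each wild-type FGO. These shares depend on the length assigned to a gene. With the longest coding transcript in place of all counted exons, the share of Dppa3 was 30.3%, of Tet3 15.6%, of Dnmt3l 3.31% and of Dnmt3a 1.54%. Dnmt1 then made up 34.9% and Uhrf1 13.8%, so Dnmt1 stood above Dppa3 and Tet3 above Uhrf1.

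**Figure D2:**
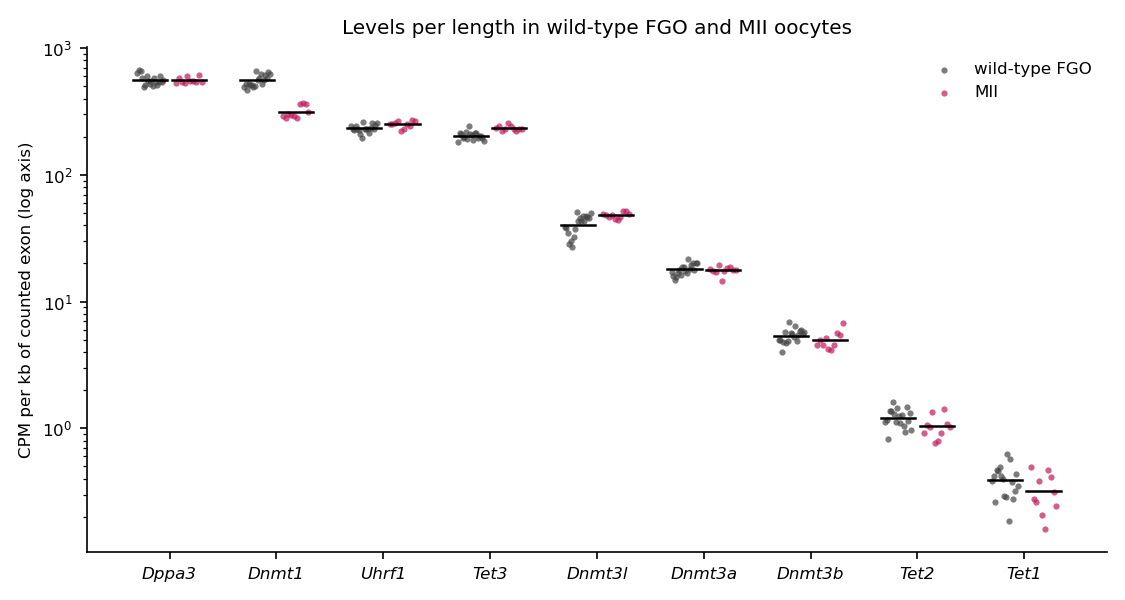
CPM per kb of counted exon (log axis) of the 9 genes in 18 wild-type FGOs (grey) and 10 MII oocytes (magenta). Points are oocytes and black lines are means. The levels span from 564 CPM per kb for Dppa3 to 0.39 for Tet1 in wild-type FGOs, and Dnmt1 has moved from 556 to 315 CPM per kb in MII oocytes.

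Within wild-type FGOs, the 3 members Dnmt1, Dnmt3a and Dnmt3l were higher in the oocytes with at least 80% of reads mapped. Dnmt3l lay between 80.9 and 116 CPM in the 8 oocytes under 80% and between 128 and 153 CPM in the other 10, so the classes did not overlap. Its log2 difference was 0.47 ± 0.07 (standard error, SE), or 1.39-fold (adjusted p = 8.08e-05, edgeR's quasi-likelihood test with Benjamini-Hochberg adjustment). Dnmt1 differed by 0.24 ± 0.05 (adjusted p = 0.00114, edgeR) and Dnmt3a by 0.19 ± 0.06 (adjusted p = 0.0181, edgeR). The other 6 members, Dnmt3b, Uhrf1, Dppa3 and the Tet genes, did not pass the test, with log2 differences from -0.16 to 0.13. The 3 called members compare with 25.4% of the 14664 genes tested. For how many of these genes the classes did not overlap was not counted. The split was examined after the data had been seen, and what else differed between these oocytes is not given in the labels.

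**Figure D3:**
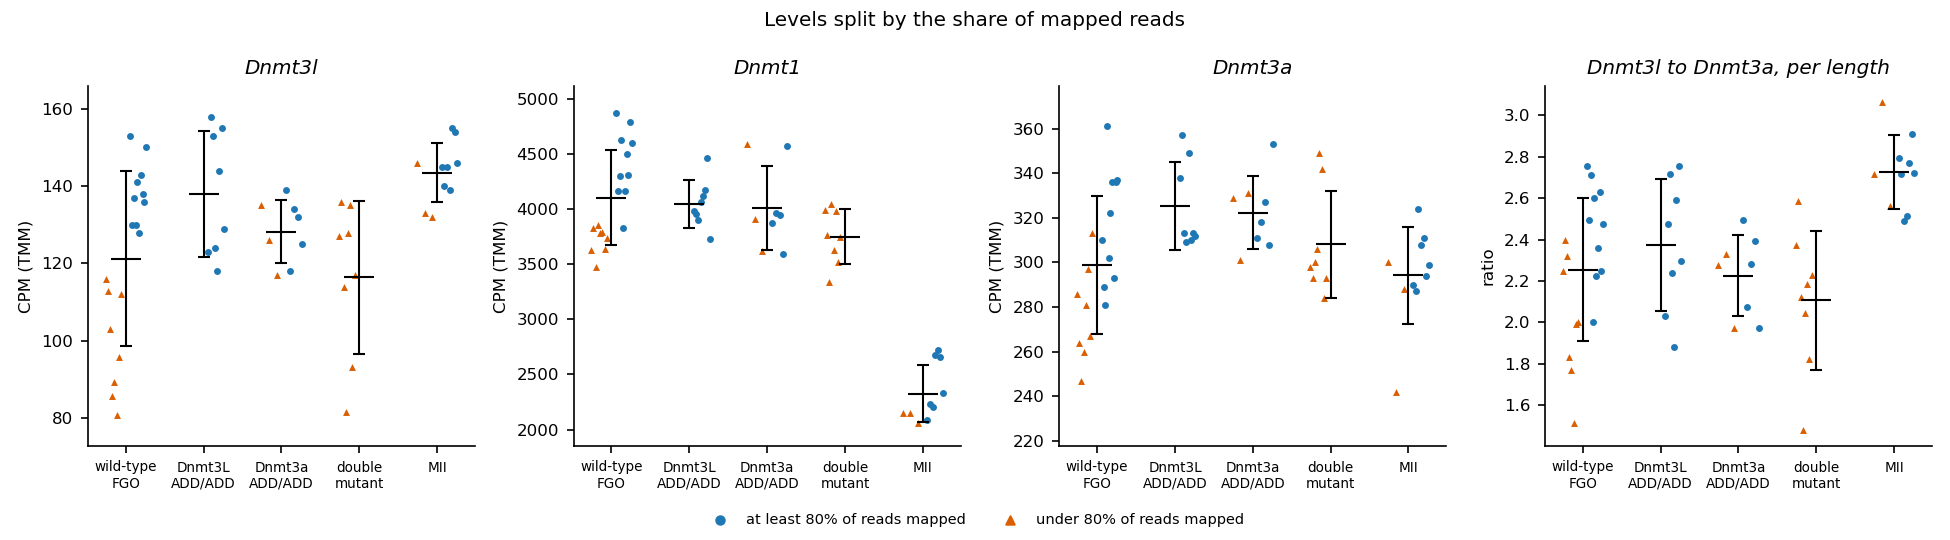
Levels of Dnmt3l, Dnmt1 and Dnmt3a in CPM and the ratio of Dnmt3l to Dnmt3a per length in every oocyte, by group (axes do not start at 0). Blue circles have at least 80% and orange triangles under 80% of reads mapped, and bars give the mean ± SD over a group. In wild-type FGOs the 8 orange points for Dnmt3l end at 116 CPM and the 10 blue points start at 128 CPM.

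The comparison of MII with wild-type FGOs asks how the transcripts of these genes stand after maturation, when transcription has ceased and many stored transcripts are lost. Dnmt1 fell and Tet3, Dnmt3l and Uhrf1 rose, while the other 5 members did not pass the test. Of all 15784 genes tested, 39.1% passed an adjusted p of 0.05, 22.6% lower and 16.5% higher, so 4 of 9 called members is near the background. None of the 9 passed the 2-fold threshold used in the study (9.2% of all genes did), although 5 members had an unadjusted p under 0.05. The median log2 difference was -0.02 over the members and -0.05 over all genes.

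Dnmt1 stood at 2325.6 ± 260 CPM (SD, n = 10) in MII oocytes. The 10 libraries had 2056.8, 2083.9, 2145.8, 2150.4, 2201.1, 2231.3, 2328.8, 2661.4, 2674.3 and 2721.7 CPM. All of them lay below the lowest wild-type FGO, at 3477 CPM. The log2 difference was -0.82 ± 0.05 (SE, adjusted p = 2.37e-18, edgeR), 1.76-fold lower, with a 95% confidence interval from -0.93 to -0.71. Within the classes of mapped reads it was -0.86 (at least 80%) and -0.80 (under 80%). Its rank among all genes went from 1 to 7. For how many other genes the stages did not overlap was not counted.

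Tet3 was at 3904.3 ± 174 CPM in MII oocytes (lowest 3670.7, median 3873.9, highest 4266.2 CPM). All 10 lay above the wild-type median and 1 above the highest wild-type FGO. The log2 difference was 0.20 ± 0.04 (SE, adjusted p = 6.29e-05, edgeR), 1.15-fold. It was 0.20 and 0.25 within the 2 classes, and past the threshold in each. Of the reads, Tet3 thus had a median of 0.834 per read of Dnmt1 in wild-type FGOs (0.671 to 1.09) and of 1.7 in MII oocytes (1.35 to 1.99), and these ranges did not overlap.

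Dnmt3l stood at 144 ± 7.58 CPM in MII oocytes (132 to 155 CPM), again with all 10 above the wild-type median. The log2 difference was 0.24 ± 0.08 (SE, adjusted p = 0.0131, edgeR). It was larger against the wild-type FGOs with under 80% of reads mapped, which had the lowest Dnmt3l (0.54), than against the others (0.07). With the class of mapped reads as a covariate it was 0.22 (adjusted p = 0.00845, edgeR). Among oocytes with at least 80% it was 0.08 (adjusted p = 0.28, edgeR), and among those under 80% it was 0.48 (adjusted p = 0.0159, edgeR). Uhrf1 stood at 1068.2 ± 68.3 CPM (944 to 1164.3 CPM), a log2 difference of 0.11 ± 0.04 (SE, adjusted p = 0.0162, edgeR). With scaling by library size alone, under which the median of all genes moved to -0.11, the difference of Uhrf1 was 0.04 (adjusted p = 0.414, edgeR). Within the classes it was 0.12 (at least 80%, adjusted p = 0.0182, edgeR) and 0.07 (under 80%, adjusted p = 0.499, edgeR), and against wild-type FGOs of at least 80% it was 0.09 (adjusted p = 0.0841, edgeR).

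Dppa3 had a mean of 497 ± 27.7 CPM in MII oocytes against 504 ± 47.2 CPM in wild-type FGOs, and its log2 difference had a 95% confidence interval from -0.12 to 0.08. For Dnmt3a the means were 294 ± 21.7 and 299 ± 30.9 CPM (interval -0.12 to 0.07). For Dnmt3b they were 25.5 ± 4.17 and 27.5 ± 3.48 CPM (interval -0.27 to 0.05). These intervals exclude a 1.5-fold difference in either direction. The Tet1 interval was wider, from -0.68 to 0.13. Tet2 was at 17.5 ± 3.61 CPM against 20.5 ± 3.45 CPM (log2 difference -0.23 ± 0.11 SE, adjusted p = 0.0794, edgeR), and passed the threshold under library size scaling (-0.30) and in oocytes under 80% mapped reads (-0.57).

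In the order per length, Dppa3 stood alone at the top in MII oocytes, at 557 ± 31.1 against 315 ± 35.3 CPM per kb for Dnmt1, without overlap. Dnmt1 took 22% ± 1.94 of the family's level per kb in MII oocytes, against 34.2% ± 2.68 in wild-type FGOs. The summed level of the 3 catalytic writers was 338 ± 36.1 CPM per kb against 580 ± 60.7, and that of the 3 Tet genes 235 ± 10.2 against 205 ± 15 CPM per kb. Below these, the order of Dnmt3l, Dnmt3a, Dnmt3b, Tet2 and Tet1 was the same at both stages.

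The ratio of Dnmt3l to Dnmt3a per length describes the cofactor against its writer within each oocyte, where scaling of the library cancels out. Its median was 2.29 in wild-type FGOs (1.52 to 2.75) and 2.72 in MII oocytes (2.49 to 3.07). The mean log2 ratio was higher by 0.29 in MII oocytes (p = 0.00084, adjusted p = 0.00336 over 4 comparisons, two-sided permutation test with 100000 resamples, n = 18 and 10). Within classes it was higher by 0.15 among oocytes with at least 80% of reads mapped (exact permutation test, p = 0.0295, n = 10 and 7) and by 0.48 among those under 80% (exact permutation test, p = 0.0121, n = 8 and 3). In the mutants the ratio differed from wild-type FGOs by 0.08 with the Dnmt3L mutation, -0.01 with the Dnmt3a mutation and -0.10 with both, with adjusted p = 0.555, 0.939 and 0.555 (exact permutation test, n = 18 and 8 each).

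**Figure D4:**
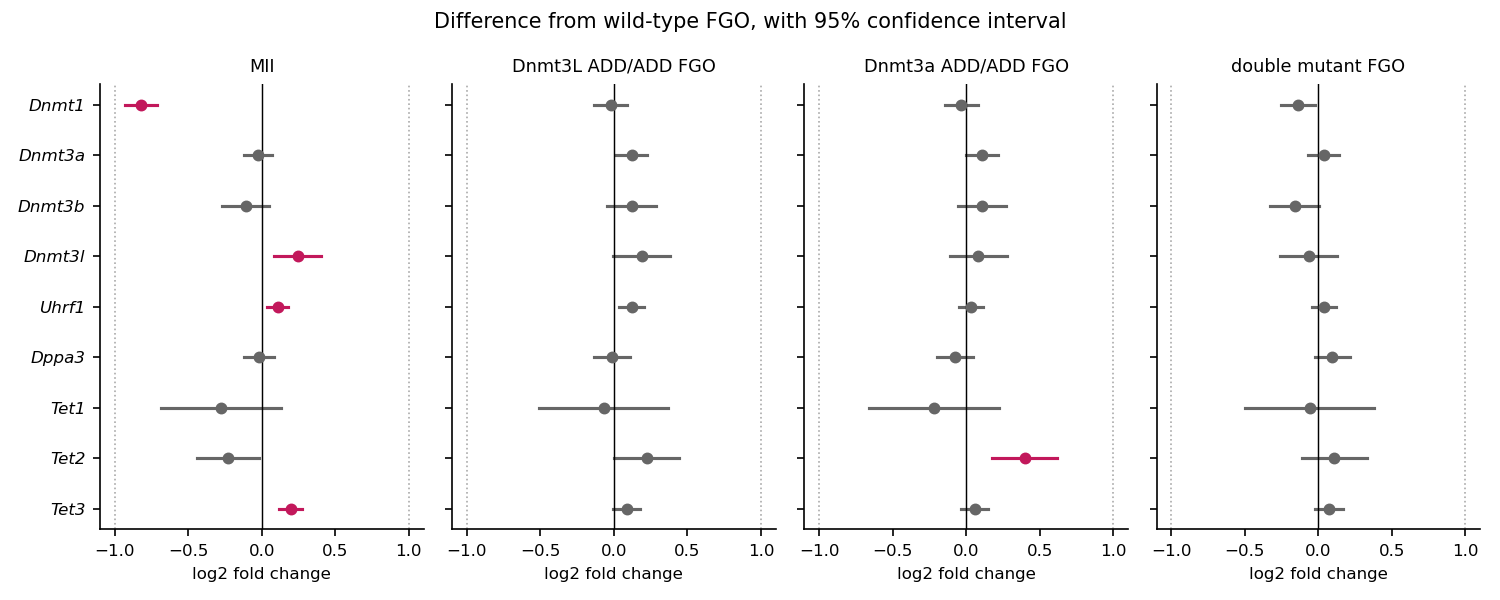
Log2 fold change of each gene against wild-type FGOs in MII oocytes and in the 3 mutants, with 95% confidence intervals from edgeR. Magenta marks an adjusted p under 0.05 and dotted lines mark 2-fold. Dnmt1 in MII oocytes, at -0.82, lies farthest from 0, and Tet2 in Dnmt3a ADD/ADD FGOs is the only magenta point in the mutants.

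Of 44 other gene names of the pathway on a list, 38 were tested and 4 were too low to test, Tdg among them. The remaining 2, Dnmt3c and Gm14490, are names of 1 gene and were not matched, though the tables hold an entry Dnmt3c-ps at 2.61 ± 1.01 CPM in wild-type FGOs. In MII oocytes 9 were higher and 9 lower than in wild-type FGOs, with a median log2 difference of 0.07, where 39.1% of all genes passed. The 5 past 2-fold (9.2% of all genes) were all lower, and all were weakly expressed. Uhrf2, a relative of Uhrf1, stood at 5.68 ± 4.43 CPM in wild-type FGOs and 1.85 ± 0.705 in MII oocytes (adjusted p = 0.000137, edgeR). Gadd45b, a stress gene linked to demethylation, stood at 2.01 ± 0.851 and 0.376 ± 0.237 CPM (adjusted p = 5.82e-09, edgeR). Pclaf, a PCNA partner in replication, Cxxc4, which binds TET2, and Zbtb4, a methyl-CpG reader, were each under 1 CPM at both stages. In MII oocytes their means were 0.00778, 0.0743 and 0.155 CPM. Genes this low there pass the filter on low counts mainly through FGOs, so their lower level in MII oocytes was largely set by the filter. Several markers of granulosa cells also had lower means in MII oocytes, and others such as Serpine2 higher ones, as given above. The part of these markers in the differences was not tested.

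The comparisons of the mutants ask whether the oocyte's methylation genes change when the ADD domains of DNMT3A and DNMT3L are altered. In Dnmt3L ADD/ADD FGOs no member passed an adjusted p of 0.05 in edgeR, where 6.13% of the 15726 genes tested did (0.655% with 2-fold). Unadjusted, 2 members had p under 0.05, and DESeq2 called 1, Uhrf1. Uhrf1 stood at 1077.6 ± 45.2 CPM (1021 to 1168.4 CPM, n = 8), with all 8 oocytes above the wild-type median, and a log2 difference of 0.12 ± 0.04 (SE, adjusted p = 0.0668, edgeR). In a fit of only the libraries of the higher class it was 0.08 (adjusted p = 0.177, edgeR). The mutated gene itself, Dnmt3l, stood at 138 ± 16.1 CPM (118 to 158 CPM). Its log2 difference was 0.19 against all wild-type FGOs and -0.0029 within the class.

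In Dnmt3a ADD/ADD FGOs 1 member, Tet2, passed the test, where 15.7% of all genes did, and none passed 2-fold (2.05% of all genes). The 8 oocytes had 21.3, 23.4, 23.5, 24.1, 26, 29.4, 32.7 and 35.6 CPM of Tet2. All 8 lay above the wild-type median of 20.5 CPM and 3 above the highest wild-type FGO, at 27.3 CPM. The log2 difference was 0.40 ± 0.11 (SE, adjusted p = 0.0107, edgeR), 1.32-fold. It was 0.37 among oocytes with at least 80% of reads mapped and 0.45 among those under 80%, though in neither class past the threshold alone (adjusted p = 0.0969 and 0.104, edgeR). Without replicate 5, the highest oocyte, it was 0.32 (adjusted p = 0.0542, edgeR).

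Dnmt3a, the mutated gene, stood at 322 ± 16.4 CPM in Dnmt3a ADD/ADD FGOs (301 to 353 CPM). All 8 oocytes lay above the wild-type median of 295 CPM, and none above the highest wild-type FGO. The log2 difference was 0.11 with a 95% confidence interval from 0.0023 to 0.21 (adjusted p = 0.153, edgeR). It was 0.03 among oocytes with at least 80% of reads mapped and 0.21 among those under 80%. Tet3, at 3538.6 ± 394 CPM, and Dppa3, at 477 ± 61.2 CPM, had wider ranges here than in the other mutants, and 3 of 8 oocytes lay below the lowest wild-type FGO for Dppa3.

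In double mutant FGOs no member passed the test in edgeR or DESeq2, where 12.2% of all genes passed in edgeR (1.65% with 2-fold). Dnmt1, at 3751 ± 249 CPM (3337.8 to 4044.6 CPM), was the 1 member with an unadjusted p under 0.05, and 7 of 8 oocytes lay below the wild-type median. Its log2 difference was -0.14 ± 0.06 (SE, adjusted p = 0.0941, edgeR). In a fit of only the libraries with under 80% of reads mapped, the class of all double mutants, it was -0.0049 (adjusted p = 0.992, edgeR). With the same 8 controls in a fit that kept all mutants it was 0.010 (adjusted p = 0.97, edgeR). Tet3, at 3595.1 ± 105 CPM, and Uhrf1, at 1024.1 ± 26.8 CPM, lay above the wild-type median in all 8 oocytes and below the highest wild-type FGO in all 8. Their log2 differences were 0.07 and 0.04, with 95% confidence intervals from -0.02 to 0.16 and from -0.04 to 0.12.

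Against the 10 wild-type FGOs with at least 80% of reads mapped, 4 members passed the test in double mutant FGOs, Dnmt1, Dnmt3b and Dnmt3l lower and Dppa3 higher. In that fit 5799 of all 15338 genes tested passed. For this choice of controls the class and the genotype cannot be told apart. The same oocytes set against the other 8 wild-type FGOs gave no call among the members, and 217 calls among all 15173 genes tested. In the single mutants, likewise, Dnmt3a and Dnmt3l were called higher against the wild-type FGOs under 80% and not against those with at least 80%. The log2 differences against the former were 0.23 and 0.47 with the Dnmt3L mutation and 0.22 and 0.36 with the Dnmt3a mutation. Uhrf1 followed the same pattern in Dnmt3L ADD/ADD FGOs, at 0.17 against the former and 0.09 against the latter. All comparisons with wild-type FGOs share these controls.

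The double mutants were also set against each single mutant. Dnmt3b was the 1 member called in each comparison, lower in double mutant FGOs. It stood at 24.8 ± 2.79 CPM in double mutant FGOs (21.5 to 28 CPM), at 29.6 ± 3.59 CPM in Dnmt3a ADD/ADD FGOs (26.3 to 35.4 CPM) and at 30 ± 4.83 CPM in Dnmt3L ADD/ADD FGOs (21.1 to 36 CPM), so the ranges overlapped. Against Dnmt3a ADD/ADD FGOs the log2 difference was -0.27 ± 0.10 (SE, adjusted p = 0.0312, edgeR), where 30.9% of all genes passed. Against Dnmt3L ADD/ADD FGOs it was -0.28 ± 0.10 (SE, adjusted p = 0.0314, edgeR), where 24.2% passed. With the class of mapped reads as a covariate the values were -0.22 and -0.21 (adjusted p = 0.154 and 0.419, edgeR). The call of Dnmt3b was also lost in both comparisons with library size scaling (adjusted p = 0.0742 and 0.0591), with no filter on low counts (0.0654 and 0.073) and with the replicate block (0.0721 and 0.0643, all edgeR). No Dnmt3L ADD/ADD FGO shared a class with a double mutant FGO, so in the second comparison class and genotype cannot be told apart within the libraries compared.

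The effect of both mutations together was set against the sum of their effects alone. It was below the sum for Dnmt3b (-0.39 ± 0.13 SE on the log2 scale, adjusted p = 0.0151, edgeR) and for Tet2 (-0.51 ± 0.17 SE, adjusted p = 0.0175, edgeR). Of all genes, 35.6% passed this test. For Tet2 the mean was 20.5 CPM in wild-type FGOs and 22.2 CPM with both mutations, against 23.9 CPM with the Dnmt3L and 27 CPM with the Dnmt3a mutation alone. With the class as a covariate Tet2 was at -0.58 (adjusted p = 0.0477, edgeR) and Dnmt3b at -0.31 (adjusted p = 0.152, edgeR). With library size scaling Tet2 was at -0.42 (adjusted p = 0.0557, edgeR). This contrast shares its libraries with the comparisons above and is not independent of them.

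Of the 38 pathway genes tested, 5 passed in Dnmt3L ADD/ADD FGOs (2 higher, 3 lower), 8 in Dnmt3a ADD/ADD FGOs (6 higher, 2 lower) and 8 in double mutant FGOs (3 higher, 5 lower). Of all genes 6.13%, 15.7% and 12.2% passed in these comparisons. The 8 called in Dnmt3a ADD/ADD FGOs are named here after their values were seen. Those on the list as maintenance partners were Usp7, a deubiquitinase that binds DNMT1 and UHRF1 (log2 difference 0.21), Hells, a chromatin remodeller (0.19), Cdca7l, a relative of the HELLS partner CDCA7 (0.27) and Pcna, the replication clamp (0.25). The others were the repair genes Ung (0.20) and Xrcc1 (0.22), which were also higher, and the methyl-CpG reader Mbd2 (-0.29) and the methionine adenosyltransferase gene Mat1a (-0.36), which were lower. Ung (0.27), Xrcc1 (0.21) and Mat1a (-0.34) were also called in Dnmt3L ADD/ADD FGOs (adjusted p = 0.00161, 0.0353 and 0.0279, edgeR). Past 2-fold there were 2 genes, both in double mutant FGOs and both lower. Pclaf stood at 0.536 ± 0.364 CPM in wild-type and 0.15 ± 0.191 in double mutant FGOs (adjusted p = 0.0225, edgeR), and Zbtb4 at 0.972 ± 0.633 and 0.194 ± 0.146 CPM (adjusted p = 0.00828, edgeR). Both are near the floor of the filter on low counts. Genes this low in double mutants pass it mainly through the other groups, so their shared direction was largely set by the filter. All double mutants have under 80% of reads mapped, and the pathway genes were not examined within that class. In the fit of that class alone, 169 of all 16187 genes tested passed. Summed markers of theca, stroma, endothelium and blood ran from 48.4 to 70.3 CPM in double mutant FGOs and from 69.5 to 166 CPM in wild-type FGOs. Most of this sum was Pecam1, with means of 60.3 CPM in double mutant FGOs, 72.6 in wild-type FGOs and 80.2 in MII oocytes. Among granulosa markers, the means in wild-type and double mutant FGOs were 9.82 and 0.892 CPM for Inha, 11.7 and 1.56 for Inhbb and 16.4 and 1.26 for Hsd3b1. In Dnmt3L ADD/ADD FGOs they were 3.4, 6.68 and 7.64 CPM, and in Dnmt3a ADD/ADD FGOs 2.62, 2.66 and 9.55 CPM. Other granulosa markers had higher means in double mutant than in wild-type FGOs. These were Nr5a2 (93.8 against 86.3 CPM), Kitl (15 against 13.4) and Has2 (2.47 against 0.934). With the Dnmt3L or the Dnmt3a mutation alone, Has2 (1.81 and 2.25 CPM) and Cyp19a1 (28.1 and 28.7 against 24.7) had higher means. Fshr was at 0.209 and 1.42 CPM in these mutants and at 0.817 CPM in wild-type FGOs. The remaining granulosa markers were lower in these mutants than in wild-type FGOs, apart from Ptx3, which was at 0. The sum of all 14 ran from 305 to 324 CPM in double mutant FGOs and from 308 to 448 CPM in wild-type FGOs. Summed oocyte markers ran from 12035.6 to 13694.8 CPM in double mutant FGOs, from 7802.6 to 9826.3 CPM in Dnmt3a ADD/ADD FGOs and from 8367.2 to 13263.5 CPM in wild-type FGOs. The part of these markers in the results on the mutants was not tested.

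Over the 52 libraries, the genes whose log2 CPM followed each member most closely were compared among 8315 genes, as a description. The closest to Dnmt1 was Tyms, thymidylate synthase (Pearson r = 0.94 over all libraries and 0.17 within the 18 wild-type FGOs). For Dnmt3l the closest were Arid1b and Sf1 (r = 0.89 and 0.88), and within wild-type FGOs, where the classes of mapped reads differ, r was 0.94 and 0.93. Tet3 was closest to Phf1, Zdhhc8 and Gm1965 (0.84, 0.83 and 0.81), Dppa3 to Srp54a (0.71), Tet2 to Dgkh (0.68), Dnmt3a to Tacc2 (0.67), Dnmt3b to Srek1 (0.67) and Uhrf1 to Eea1 (0.65). Tet1, with few counts, reached 0.48 at most (Sned1). All points share the depth and class of their libraries.

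The library kit starts from the poly(A) tail, whose length is set in the oocyte in part by short motifs near the transcript's end. In the last 100 bases of the longest coding transcript (GENCODE M21), the signal AATAAA was found in 7 of 9 members and in 61.6% of 21828 genes. The cytoplasmic polyadenylation element, searched as TTTTAT or TTTTAAT on the transcript strand, was found in 5 of 9 members (Dnmt1, Dnmt3a, Tet1, Tet2 and Tet3) and in 16.6% of genes. In Tet2 and Tet3 a TTTTAAT overlapped the AATAAA. The element was thus present both in Dnmt1, which fell in MII oocytes, and in Tet3, which rose, and these letters were not found in Dnmt3l, Uhrf1 or Dppa3. Which transcript ends the oocyte uses was not measured.

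Some reads could belong to neighbouring or similar genes. Dnmt3l shares 67 exon bases with the antisense gene Aire, which had a mean of 150 counts against 1840 for Dnmt3l. Dnmt3a shares 133 bases with the antisense transcript Dnmt3aos (mean 6.29 counts) and Tet2 shares 43 with Gm42567 (5.37 counts). The Dppa3 pseudogene Dppa3-ps stood at 10.5 ± 2.43 CPM in wild-type FGOs, against 504 CPM for Dppa3. Counts do not separate isoforms, such as the shorter DNMT3A2 and the oocyte form of DNMT1.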

How the data were processed

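Single-oocyte RNA-seq libraries (18, 8, 8, 8 and 10 oocytes in the groups named above) were analysed from the raw read counts per gene that the authors deposited. Per the study's methods, reads were aligned to mm10 with STAR and counted with featureCounts, and HTSeq was also named. The annotation release, the strand setting and the treatment of multimapping reads are not given in the sources used here. In 16 libraries the total count exceeded the mapped reads listed. No libraries of a group agreed within counting noise (lowest chi-square per degree of freedom 5.39).

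Counts were fitted across all genes with edgeR 4.0.16 in R 4.3.3 (quasi-likelihood test, TMM factors of 0.95 to 1.1, genes kept by filterByExpr at a minimum count of 10, p adjusted after Benjamini-Hochberg). The mutant contrasts came from 1 fit of 42 FGOs (15726 genes, biological coefficient of variation 25.2%) and the MII contrast from 1 fit of 52 oocytes (15784 genes, 23.8%). Calls required an adjusted p under 0.05, with and without the 2-fold threshold of the study. Per-length levels used the exon length in the deposited tables. Log2 ratios were compared by permutation tests. The fits were tested on simulated data. Similar genes were the 3 with the highest Pearson r (log2 CPM, prior count 2) among tested genes with a mean of at least 10 CPM. Pathway genes were named where they passed both thresholds, and those named outside this rule are marked in the text. Some genes are not reported here. Alternatives were DESeq2 1.42.0, the edgeR exact test, RLE factors, library size only, no filter, fits of 2 groups, the replicate block, the mapped-read class, and each library left out. The test of the classes within wild-type FGOs was added after seeing the data. The members and lists were chosen with earlier results of these data known. Allelic counts of 3 embryos were not used here.

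Sequences of guides and donors came from the study's supplement, and transcripts and exon positions from GENCODE M21 (GRCm38, equal to mm10).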

Additional observations from a re-analysis of the deposited data

Results flagged for a closer look

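Within groups, 36 sets of libraries were checked for a value far from the rest, and chance flags about 1 in 20. In MII oocytes Dnmt3a was lowest in replicate 5, at 242 CPM, with the next oocyte at 287 CPM. In Dnmt3a ADD/ADD FGOs Tet1 was highest in replicate 8, at 12 CPM (215 counts), with the next oocyte at 5.15 CPM.

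The effect of the Dnmt3L mutation differed by the Dnmt3a genotype for Dnmt3b (log2 difference of the effects -0.39, adjusted p = 0.0151, edgeR) and for Tet2 (-0.51, adjusted p = 0.0175, edgeR). The mapped-read class moves with the genotypes, and with it as a covariate the values were -0.31 and -0.58.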

How the results depend on the processing

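Under settings other than leaving out 1 library, 385 member differences kept their direction and call, 17 gained a call, 17 lost one and 31 changed sign, and none of the called values changed sign. The number of members past an adjusted p of 0.05 in MII oocytes was 4, and 2 with wild-type FGOs of at least 80% as controls. In Dnmt3L ADD/ADD FGOs it was 0, but 1 with DESeq2, 3 with the replicate block and 3 with controls under 80%, where calls over all genes went from 964 to 2830 and 3344. In Dnmt3a ADD/ADD FGOs it was 1, but 3 with the replicate block, 3 with controls under 80% and 0 within either class (2465 calls over all genes, against 4109, 4377, and 1334 and 1043 within the classes). In double mutant FGOs it was 0, and 4 with controls of at least 80%. Between double and single mutants, the 1 call fell to 0 with no filter or the class as covariate in both comparisons, with the replicate block against Dnmt3a ADD/ADD and with library size only against Dnmt3L ADD/ADD. The replicate block and library size only ended the call of Dnmt3b in both comparisons, and where the count stayed at 1 another member was called. For the non-additive effect the 2 calls became 6 with the replicate block and 1 with the class as covariate. Replicate numbers did not pair the samples (correlations of deviations from -0.514 to 0.468, over 0.1 in 2, 4 and 2 of 8 pairs for the mutants and 0 of 10 for MII). The replicate block sets the mutants against the wild-type replicates with the same numbers, which are of the lower class.

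Sign changes of values near 0 were as follows, on the log2 scale, and the cause was not tested. With the replicate block, Dnmt3a in MII oocytes was at 0.067, Dnmt1 at 0.12 with the Dnmt3L mutation, 0.11 with the Dnmt3a mutation and 0.0077 with both, where Dnmt3l was at 0.22. With controls under 80% in a fit that kept all mutants, Dnmt3a in MII oocytes was at 0.10, Dnmt1 in the mutants, in the same order, at 0.12, 0.11 and 0.010, and Dnmt3l in double mutants at 0.22. Within the class under 80%, Dnmt3a in MII oocytes was at 0.013, Dnmt1 in Dnmt3a ADD/ADD FGOs at 0.12 and Dnmt3l in double mutants at 0.21, and the ratio of Dnmt3l to Dnmt3a at 0.14 and 0.064 in these mutants. Within the class of at least 80%, Dppa3 in MII oocytes was at 0.031. In Dnmt3L ADD/ADD FGOs Dnmt3l was at -0.0029, Dppa3 at 0.037, Tet1 at 0.0018 and the ratio at -0.051, and in Dnmt3a ADD/ADD FGOs Dnmt3l was at -0.095 and Tet3 at -0.0021. With controls of at least 80%, Dppa3 in MII oocytes was at 0.044, and in Dnmt3L ADD/ADD FGOs Dnmt3l was at -0.0005, Dppa3 at 0.041 and Tet1 at 0.0011. Also with these controls, Dnmt3l was at -0.11 and Uhrf1 at -0.0034 in Dnmt3a ADD/ADD FGOs, and Dnmt3a at -0.040 and Tet1 at 0.014 in double mutants. With the class as covariate, Dppa3 and Tet1 in Dnmt3L ADD/ADD FGOs were at 0.036 and 0.036, and Dnmt3l in double mutants at 0.15. With library size only, Uhrf1 in Dnmt3a ADD/ADD FGOs was at -0.008.

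With 1 library left out, counts of calls ran from 4 to 5 in MII oocytes (Tet2 added without MII replicate 4 or 8) and from 0 to 1 in Dnmt3L ADD/ADD FGOs (Uhrf1 added without wild-type replicate 9 or 18) and in Dnmt3a ADD/ADD FGOs (Tet2 lost without replicate 5). The log2 ratio of Dnmt3l to Dnmt3a ran from -0.0396 to 0.0176 in Dnmt3a ADD/ADD FGOs. Differences that crossed 0 were Dnmt3a (-0.0394 to 0.0088) and Dppa3 (-0.0347 to 0.0081) in MII oocytes, Dppa3 (-0.0461 to 0.007) and Tet1 (-0.2156 to 0.0004) in Dnmt3L ADD/ADD and Tet1 (-0.2249 to 0.0453) in double mutant FGOs. Depth limits Tet1 most, with 44 to 166 counts in wild-type FGOs. Comparisons between mutants and the non-additive effect were not run with libraries left out.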
